A study of Mus musculus with 18 samples.

Results

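The genes described here are a list of replication and mitosis genes, given by symbol, of which 48 of 49 had a probe set annotated to that gene alone. They were 15 replication genes, 7 regulators and 26 mitosis genes among the 19938 genes measured in all. Ccnb1, the remaining mitosis gene, had no such probe set. All 48 passed the filter on dim genes in every comparison below, so no member was left out of a count. Each of 18 mouse samples was read on 1 single-colour expression array, and the arrays fell into pluripotent cells (10), small intestinal organoids (2) and embryonic fibroblasts, or MEFs (6).

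The pluripotent cells were 3 lines of colon tumour cells reprogrammed toward pluripotency (RTC 1, RTC 2 and RTC 3), 2 RTC derivatives (#45 from RTC 1 and #9 from RTC 3), embryonic stem cells (ESCs) of genotypes Apc +/+, Apc Min/+ and Apc Min/Min, and S33-ES cells without and with doxycycline (dox). The organoids and 4 of the MEF arrays were derived from derivative #45, whose Apc genotype the labels do not give. They were untreated or kept for 2 days in 4-hydroxytamoxifen (4-OHT), with 1 uM in the organoid medium and 2 ug/ml in that of the MEFs. The last 2 arrays were S33-MEFs without and with dox. The study asked about Apc mutation in several cell types and about induction of a mutant beta-catenin in ESCs and MEFs. Its labels do not say what S33 stands for, what 4-OHT switches in #45, which promoter drives either system, or the dose and time of dox. They list a medium with FGF4 for Min/Min ESCs, which the medium of the other ESCs lacked, and do not say whether the arrayed cells were grown in it. Nothing says that arrays of a group came from separate cultures or animals, so p-values measure only the spread between these arrays. That spread may be technical for #45 MEFs of the same treatment. Where an arm holds several lines or genotypes, the spread includes the differences between them.

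Before DNA is copied, the origin recognition complex with Cdc6 and Cdt1 loads the ring of Mcm2 to Mcm7 onto origins, and Cdc45 and the GINS subunits Gins1 and Gins2 then join it to form the helicase that unwinds DNA for polymerases such as Pole. E2F factors drive many of these genes late in G1 phase, while Foxm1 and Mybl2, the latter with the MuvB complex, drive genes of G2 phase and mitosis. Mitosis genes encode the kinase Cdk1 and its cyclins, the spindle and kinetochore (Kif11, Tpx2, Ndc80, Nuf2), the checkpoint that holds cells until chromosomes attach (Bub1, Bub1b, Ttk) and cytokinesis (Anln, Ect2, Prc1). Pluripotent stem cells are known for a short G1 phase and rapid division, and primary fibroblasts divide more slowly. In bulk RNA, fewer dividing cells and less of these transcripts per cell cannot be told apart.

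Levels below are log2 of the deposited intensity after joint quantile normalization of all 18 arrays. The deposited array medians ran from 142 to 317. All 7 pluripotency markers averaged 12.53 to 12.86 in the 10 pluripotent arrays and at most 6.95 elsewhere. The 10 intestinal markers averaged 12.11 and 12.20 in the organoids and at most 8.39 elsewhere. The 8 fibroblast markers averaged 12.13 to 12.77 in the 6 MEF arrays, and still 8.43 to 10.93 in the pluripotent arrays, which carried that signal to unequal degrees. Myeloid and lymphoid markers (7) averaged 9.43 and 9.24 in the first pair of #45 MEFs, against 7.86 and 7.79 in the second pair. The 2 arrays of that second pair had exactly equal deposited intensities at 19.2% of probe sets, and the Min/Min and +/+ ESC arrays at 17.3%. Derivative #9 shared 11.7% with the untreated and 9.52% with the treated array of that MEF pair.

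RefSeq start sites (GRCm38.p6) were at hand for 38 of the 48 members, in 41 windows that run from 250 bases before to 50 bases after the start. The windows were searched on both strands for TTTGAA, the core of the cell cycle homology region (CHR) that MuvB complexes bind, for CCAAT, the box bound by NF-Y, and for letters bound by E2F factors. The E2F letters were TTCGCGC as one form, with TTGGCGC as the other. Of 24 mitosis windows, 20 (83.3%) held TTTGAA, against 2 of 12 replication windows (16.7%) and 17.9% of 32851 windows of all genes. An E2F match lay in 5 of 12 replication windows (41.7%), in 4 of 24 mitosis windows (16.7%) and in 3.89% of all. CCAAT lay in 79.2% of mitosis windows, 83.3% of replication windows, 1 of 5 regulator windows and 37.4% of all. TTTGAA and CCAAT stood together in 17 of 24 mitosis windows (70.8%) and in 6.95% of all. A match is a description of letters and not a bound site. The windows of Aurka, Ect2, Kif2c, E2f1, E2f8, Mybl2 and Cdc6, and a window of Mcm7, lay wholly inside the gene's span. Except in Mcm7, the bases before the outer 5′ end of these genes were thus not searched, which bears on the shares above. Ect2, Prc1 and Mcm7 each had 2 windows, which overlap for Ect2 and Prc1.

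The sequences of 3 mitosis genes with TTTGAA and CCAAT, of 2 replication genes with E2F letters and of E2f1 are shown because these genes took different places in the S33-MEF comparison below. They were chosen after their values were seen, and the mitosis genes only among those with both words. The mitosis windows without TTTGAA were those of Nuf2, Cenpe, Bub1 and Nusap1. These genes differed by -2.12, -1.93, -1.87 and -1.84 with dox in S33-MEFs. The windows of Nuf2 and Nusap1 held none of the searched words. Anln, with 2 TTTGAA matches, differed by -1.07. Whether the words go with the size of the difference was not tested. Each runs 5′ to 3′ on the gene's strand, and capitals mark every match to the 4 searched words on either strand, so that a match on the other strand shows as its reverse complement. Neighbouring E2F matches overlap, and positions below are those of the leftmost base.
Bub1b, chr2:118597961-118598260, plus strand: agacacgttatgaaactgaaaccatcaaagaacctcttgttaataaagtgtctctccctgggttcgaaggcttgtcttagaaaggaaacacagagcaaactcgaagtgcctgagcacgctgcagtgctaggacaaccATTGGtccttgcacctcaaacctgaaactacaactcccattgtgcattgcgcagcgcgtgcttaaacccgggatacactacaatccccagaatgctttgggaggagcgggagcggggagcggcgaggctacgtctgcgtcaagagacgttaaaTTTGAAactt
Kif11, chr19:37376132-37376431, plus strand: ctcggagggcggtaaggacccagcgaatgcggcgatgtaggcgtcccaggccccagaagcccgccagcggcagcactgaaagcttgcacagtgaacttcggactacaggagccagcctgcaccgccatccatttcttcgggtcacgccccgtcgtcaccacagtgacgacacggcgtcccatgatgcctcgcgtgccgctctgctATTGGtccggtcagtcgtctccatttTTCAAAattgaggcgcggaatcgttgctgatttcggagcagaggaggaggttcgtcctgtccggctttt
Top2a, chr11:99024140-99024439, minus strand: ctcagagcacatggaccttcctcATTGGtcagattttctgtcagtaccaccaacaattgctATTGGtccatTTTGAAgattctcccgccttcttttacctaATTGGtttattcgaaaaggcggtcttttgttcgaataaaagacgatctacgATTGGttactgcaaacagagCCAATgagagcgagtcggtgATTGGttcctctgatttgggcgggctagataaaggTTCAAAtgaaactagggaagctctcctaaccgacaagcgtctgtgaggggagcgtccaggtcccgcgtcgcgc
Mcm3, chr1:20820263-20820562, minus strand: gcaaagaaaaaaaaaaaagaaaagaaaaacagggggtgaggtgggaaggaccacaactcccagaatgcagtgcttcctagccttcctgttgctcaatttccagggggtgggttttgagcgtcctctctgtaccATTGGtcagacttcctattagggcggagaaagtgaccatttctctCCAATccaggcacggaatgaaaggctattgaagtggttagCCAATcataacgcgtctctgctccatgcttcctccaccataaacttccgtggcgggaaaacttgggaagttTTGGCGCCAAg
Mcm6, chr1:128359656-128359955, minus strand: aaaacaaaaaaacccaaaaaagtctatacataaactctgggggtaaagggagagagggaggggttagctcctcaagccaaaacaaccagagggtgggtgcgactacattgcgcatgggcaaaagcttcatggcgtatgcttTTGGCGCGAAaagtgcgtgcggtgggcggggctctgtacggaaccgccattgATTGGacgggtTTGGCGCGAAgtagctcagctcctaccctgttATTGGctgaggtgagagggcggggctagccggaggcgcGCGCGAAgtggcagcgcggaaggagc
E2f1, chr2:154569377-154569676, minus strand: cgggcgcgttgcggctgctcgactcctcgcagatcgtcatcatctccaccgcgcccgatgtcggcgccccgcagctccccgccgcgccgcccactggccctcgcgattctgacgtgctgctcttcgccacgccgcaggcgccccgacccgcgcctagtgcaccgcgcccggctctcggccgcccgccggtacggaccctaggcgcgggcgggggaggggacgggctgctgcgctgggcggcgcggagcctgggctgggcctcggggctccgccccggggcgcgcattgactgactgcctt
In Kif11, the spindle motor, TTTGAA began 19 bases before the start and CCAAT 45 bases before it. Top2a, the topoisomerase that untangles chromosomes, had 6 CCAAT matches and TTTGAA at 179 and 23 bases before the start. Bub1b, a checkpoint protein, had TTTGAA 40 bases after the start. Mcm6 had 5 E2F matches. They lay in overlapping pairs at 109 and 106 and at 46 and 43 bases before the start and singly 24 bases after it. The window of E2f1 held none of the searched words, but it lay inside the gene, whose 5′ end is at 154569892. The bases before that end were not searched.

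Across the 18 arrays, the members were high in pluripotent cells, intermediate in organoids and low in fibroblasts. The mean level of the 15 replication genes was 11.12 to 11.81 (median 11.68) in the 10 pluripotent arrays, 10.88 and 11.03 in the organoids, and 8.97 to 9.95 (median 9.82) in the 6 fibroblast arrays. For the 26 mitosis genes it was 11.71 to 11.90 (median 11.78), 10.85 and 11.13, and 8.90 to 10.47 (median 9.79). The regulators gave 10.61 to 11.49 (median 11.31), 10.35 and 10.43, and 9.23 to 9.95 (median 9.83). These means did not overlap between the 3 kinds of cell.

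**Figure D1:**
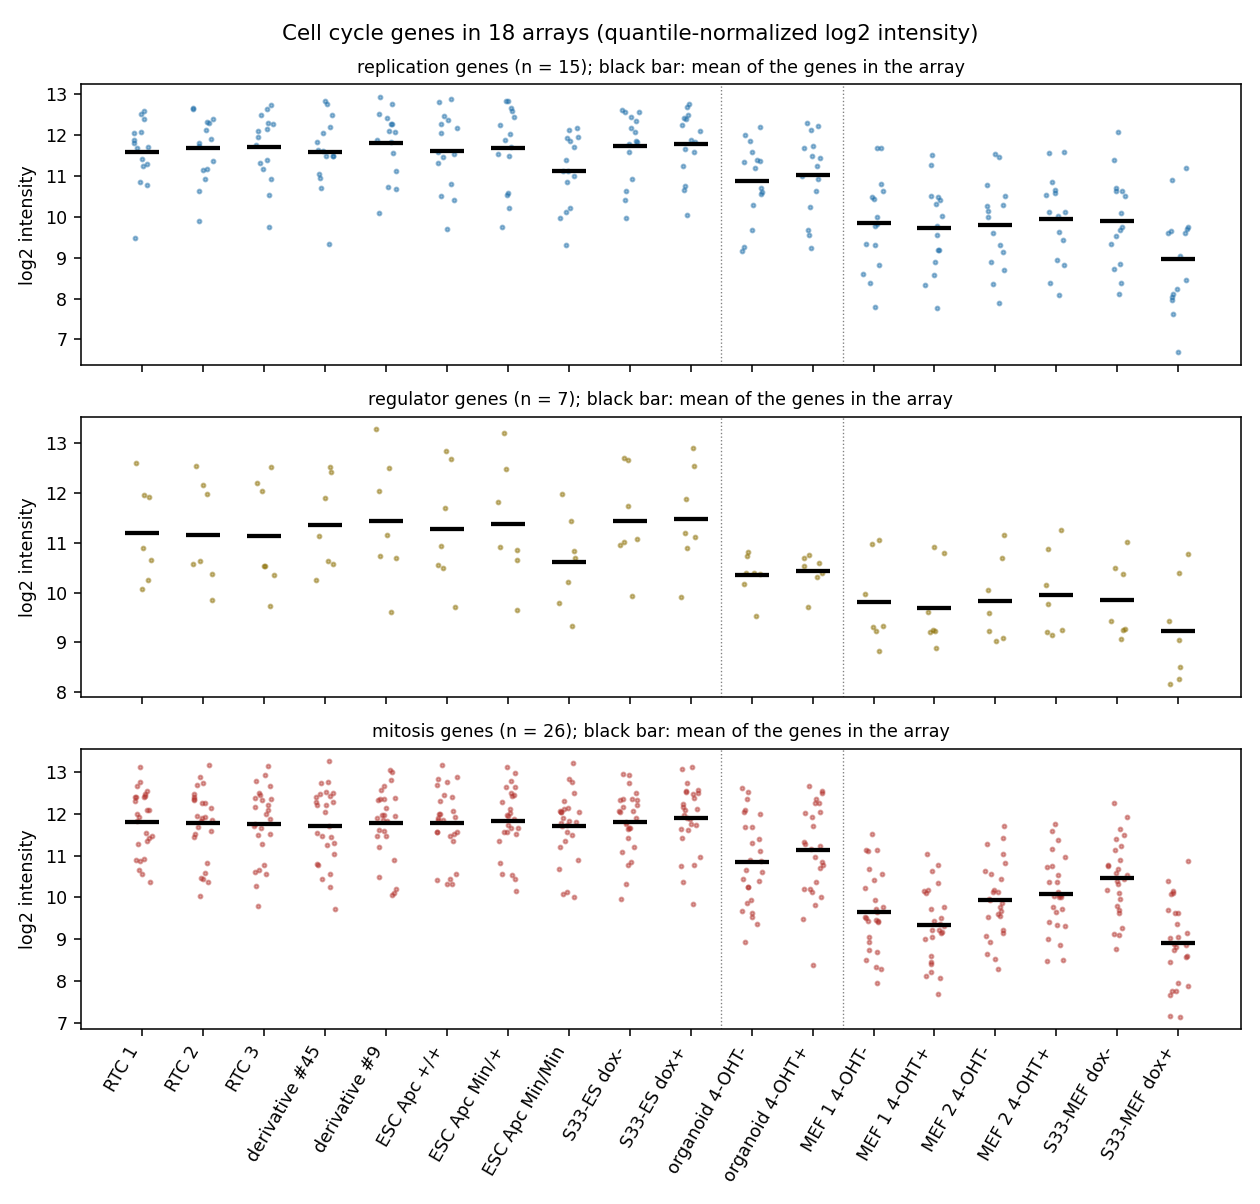
Quantile-normalized log2 intensity of each member in each of 18 arrays, with replication genes, regulators and mitosis genes in separate panels; points are genes and black bars are the mean of the panel's genes in that array. Dotted lines part pluripotent cells, organoids and fibroblasts, and S33-MEF dox+ has the lowest bar in every panel (8.97, 9.23 and 8.90).

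Single genes mostly followed this order. All 10 pluripotent arrays lay above all 6 fibroblast arrays for 42 of 48 members, against 14.1% of all genes: 14 of 15 replication genes, 24 of 26 mitosis genes and 4 of 7 regulators. Both organoid arrays lay below every pluripotent array for 31 of 48 members (18.4% of all genes) and above every fibroblast array for 39 of 48 (27.4% of all genes). The lowest of the 18 levels belonged to S33-MEF dox+ for 43 of 48 members, including 15 of 15 replication genes and 23 of 26 mitosis genes, against 7.79% of all genes.

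The span from lowest to highest array had a median of 3.16 over the members. It was widest for Mybl2, the transcription factor of late S phase and G2, at 4.78: Mybl2 stood at 8.50 in S33-MEF dox+, between 9.08 and 9.32 in the other 5 fibroblast arrays, at 10.40 and 10.54 in organoids and at 11.99 to 13.28 in pluripotent cells. The narrowest span, 0.97, was that of E2f1, which ran from 10.22 in Min/Min ESCs to 11.19 in S33-ES dox+ and showed no order by cell type. E2f1 was 10.50 to 10.98 in fibroblasts and 10.74 and 10.76 in organoids, inside the pluripotent range. Mki67, the proliferation antigen, broke the order in another way: its highest level, 12.28, was in the organoids with 4-OHT, and 12.00 in those without, while pluripotent arrays ranged from 11.05 to 12.21. Ccne1, the cyclin that starts S phase with Cdk2, was lowest in organoids (10.38 and 10.31), below all 6 fibroblast arrays (10.40 to 11.26).

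**Figure D2:**
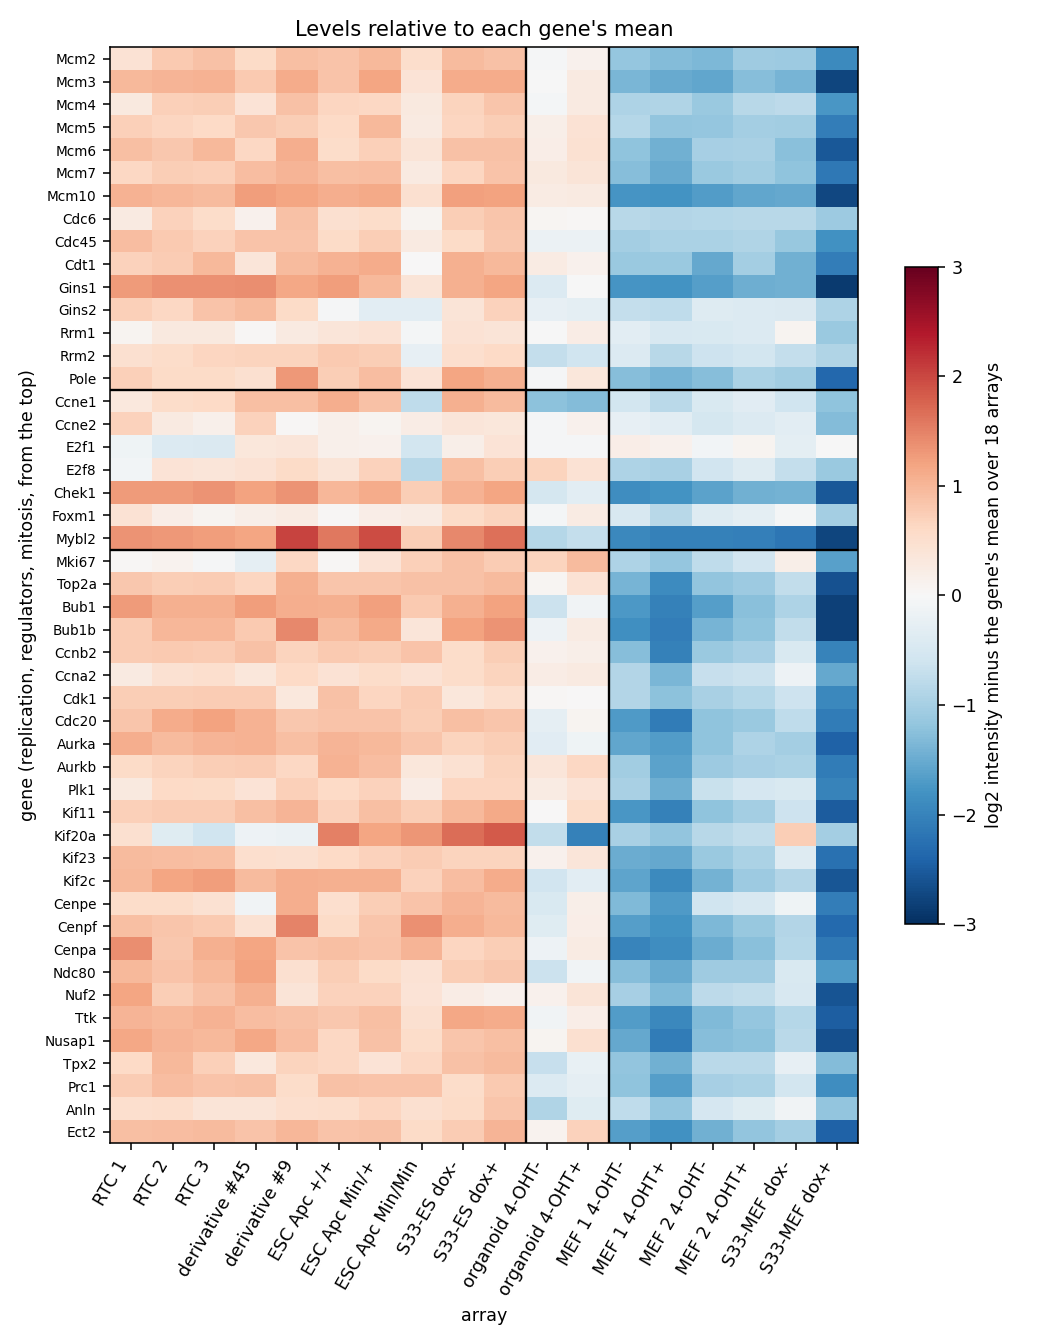
Each member's log2 level minus its mean over the 18 arrays, with genes in rows (replication, regulators and mitosis parted by lines) and arrays in columns (pluripotent cells, organoids and fibroblasts parted by lines). Fibroblast columns are blue for nearly every gene, the S33-MEF dox+ column is the darkest, and the rows of E2f1 and Kif20a depart from the others.

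The difference between cell types was tested where arrays could serve as replicates: 5 pluripotent arrays (derivatives #45 and #9, Apc +/+, Apc Min/+ and S33-ES dox-) against 3 untreated fibroblast arrays (#45 MEFs 1 and 2, S33-MEF dox-). By limma with Benjamini-Hochberg adjustment over 12851 genes, 46 of 48 members were higher in pluripotent cells and 0 lower, while 30% of all genes tested were higher and 32% lower. Every replication gene was called, 15 of 15 with a median difference of 1.92, as were 25 of 26 mitosis genes (median 1.74) and 6 of 7 regulators (median 1.34). The median over all genes was -0.04. Derivative #9 and #45 MEF 2, which share equal intensities, lie on opposite arms: 45 of the 46 were still called without the former and 44 without the latter.

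Mcm10, which helps to switch on the helicase, was 11.47 to 11.62 in the 5 pluripotent arrays and 8.59, 8.69 and 8.84 in the fibroblasts, with no overlap. Its log2 difference was 2.84 ± 0.11 (SE, limma adjusted p = 2.25e-07). Gins1, of the same helicase, differed by 2.79 ± 0.14 (limma adjusted p = 8.32e-07), and Chek1, the kinase that guards stalled replication forks, by 2.78 ± 0.14 (limma adjusted p = 9.51e-07). Mybl2 differed most, by 3.68 ± 0.20 (limma adjusted p = 1.48e-06). Among mitosis genes the leader was the checkpoint kinase Bub1, at 12.33 to 12.52 in pluripotent cells and 9.54, 9.61 and 10.33 in fibroblasts, a difference of 2.58 ± 0.18 (limma adjusted p = 5.72e-06).

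The smaller differences included ribonucleotide reductase Rrm1 (0.54 ± 0.16), Foxm1 (0.56 ± 0.15), Ccne2 (0.63 ± 0.17), Gins2 (0.83 ± 0.27) and Mki67 (0.84 ± 0.32, limma adjusted p = 0.0417). E2f1, at 0.30 ± 0.14 (limma adjusted p = 0.0894), and the cytokinesis kinesin Kif20a, at 1.17 ± 0.55 (limma adjusted p = 0.0909), were not called. Kif20a spread widely inside both arms, with 10.25, 10.21, 11.91, 11.58 and 12.07 in the pluripotent arrays and 9.42, 9.56 and 11.14 in the fibroblasts. The call for Mki67 was lost with the values as deposited (adjusted p = 0.063), with no filter (0.0561), and without derivative #9 (0.0781), Apc Min/+ (0.0732), S33-ES dox- (0.0793), #45 MEF 1 (0.16) or #45 MEF 2 (0.137). Rrm1 lost it with the values as deposited (0.051) and without #45 MEF 1 (0.0538) or 2 (0.0716), while Gins2 (0.0813) and Foxm1 (0.0527) lost it without #45 MEF 1.

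**Figure D3:**
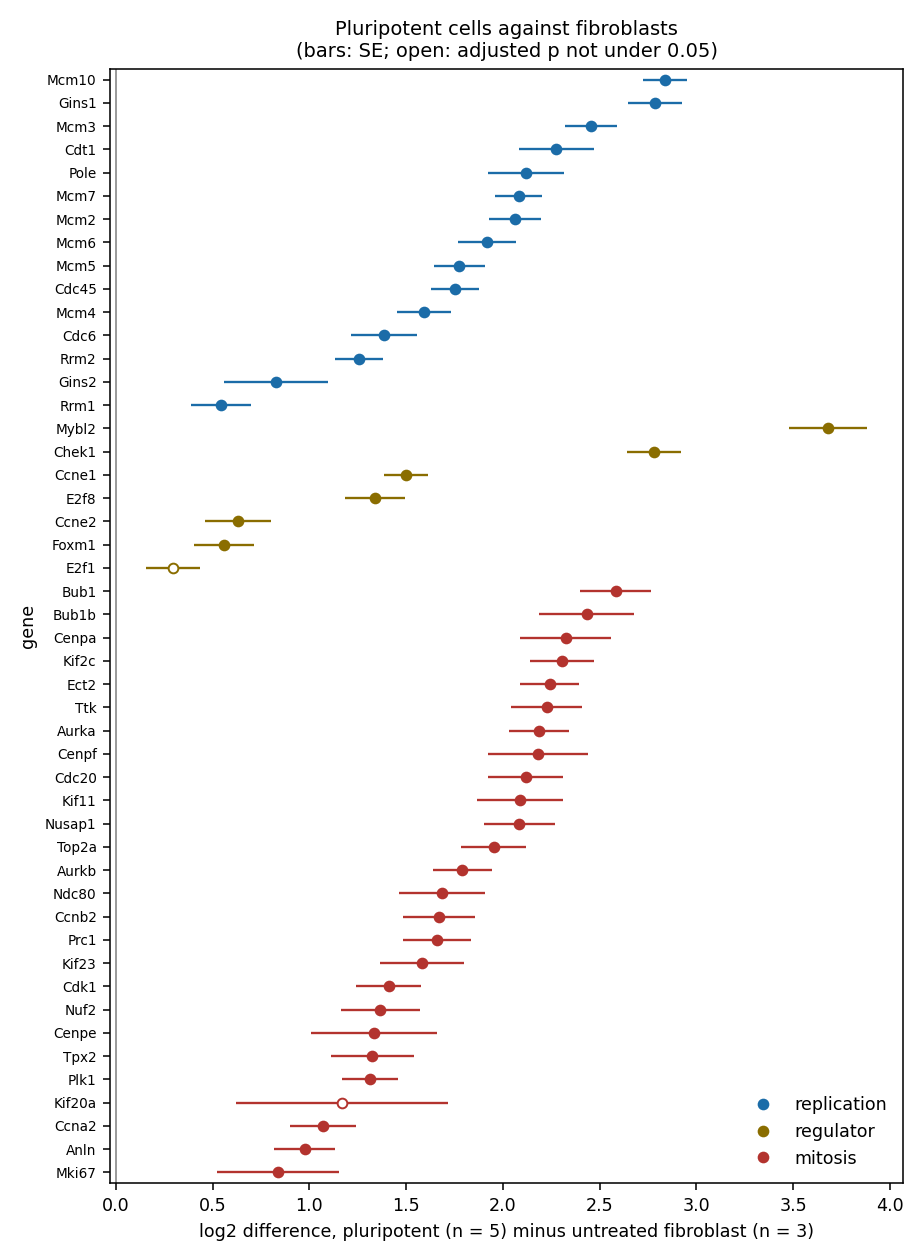
Log2 difference of each member between 5 pluripotent and 3 untreated fibroblast arrays, with its limma standard error, grouped by role; filled points passed an adjusted p of 0.05. All 48 points lie above 0, from 0.30 for E2f1 (open) to 3.68 for Mybl2.

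Other genes of the same machinery, from lists that hold no member, gave 43 of 44 replication genes higher (Orc1 of the origin recognition complex 3.11, Mcm8 2.56 and the primase Prim1 2.50) and 53 of 56 mitosis genes higher (the cohesin protector Cdca5 2.69, Ccnf 2.54 and separase, Espl1, 2.45), with 0 lower in either. Brakes and G1 genes divided, with 8 of 23 higher and 7 lower, against 30% and 32% of all genes tested. These counts are near the background and are no result about that list. Ccnd2, a D-type cyclin, was lower by limma (-2.06 ± 0.35), as were the Cdk inhibitors Cdkn2c (-1.91), Cdkn2b (-1.78) and Cdkn1c (-1.26) and the cyclin Ccnd1 (-0.74). Wee1, which holds Cdk1 inactive, was higher (1.69), as were the phosphatase Cdc25a (1.52), E2f5 (1.47) and the polymerase clamp Pcna (0.74), while Cdkn1b (0.00) and Cdkn2a (-0.51) were not called. Fibroblast markers averaged 9.22 to 10.58 in these pluripotent arrays, and their part in the differences was not tested.

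With dox, S33-MEFs had lower levels of all mitosis genes and of most other members. With 1 array on each side the difference has no replicate check, and a change of at least 2-fold was counted instead. All 48 members were above the array median without dox and 40 of 48 with it. Of 48 members, 34 were at least 2-fold lower and 0 higher, against 3.71% of 11390 genes lower. The 34 were 26 of 26 mitosis genes (median log2 difference -1.54, range -2.12 to -1.06), 7 of 15 replication genes (median -0.96, range -1.43 to -0.18) and 1 of 7 regulators (median -0.61), while the median over all genes was 0.04.

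Nuf2, of the kinetochore complex that grips microtubules, went from 9.26 without dox to 7.14 with it (-2.12). Bub1b went from 9.79 to 7.75 (-2.05), and Cenpe, a kinetochore motor, from 9.69 to 7.76 (-1.93). With dox, Nuf2, Bub1b and Cenpe were below the array median of 7.93, and 20 of 26 mitosis genes were above it. Genes below it passed the filter only through the array without dox. Top2a was 10.90 and 9.02 (-1.87) and Kif11 10.76 and 8.89 (-1.87). The mitosis genes that differed least were the spindle factor Tpx2 (-1.06), Anln, which links actin to the cleavage furrow (-1.07), and the kinase Aurkb (-1.16). For 23 of the 26, the array with dox was below all 5 other fibroblast arrays, as it was for 25% of all genes.

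Among replication genes, Gins1 (8.12 to 6.68, -1.43), Mcm3 (9.33 to 7.97, -1.36), Pole (9.54 to 8.24, -1.30), Mcm6 (-1.29), Mcm10 (-1.20), Rrm1 (-1.18) and Mcm5 (-1.02) passed 2-fold. Gins1 and Mcm10 were below the array median with dox, and 13 of 15 replication genes were above it. Rrm2, the small subunit of ribonucleotide reductase (-0.18), and the loader Cdc6 (-0.27) differed least. Chek1 was the regulator past 2-fold (9.27 to 8.16, -1.11). Foxm1 (10.38 to 9.44, -0.95) and Mybl2 (9.08 to 8.50, -0.57) stayed inside it, and E2f1 was the one member with a higher value, 10.50 without and 10.78 with dox (0.28).

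Untreated #45 MEFs give a measure of how far fibroblast arrays stand apart. Their second array minus the first had a median of 0.24 over mitosis genes (24 of 26 higher, with 47.9% of all genes higher) and -0.03 over replication genes, with no member 2-fold apart. S33-MEFs without dox lay above both #45 arrays for 26 of 26 mitosis genes, by a median of 0.78 and 0.47. Of all genes, 49.8% and 52.1% were higher than in MEF 1 and MEF 2, and 39% higher than in both. For replication genes these medians were 0.07 and 0.12. S33-MEFs with dox lay below both untreated #45 arrays for 26 of 26 mitosis genes (medians -0.754 and -0.999) and 15 of 15 replication genes (-0.88 and -0.87), as they did for 37.9% of all genes. At least 2-fold lower than #45 MEF 1 and MEF 2 were 7 and 13 mitosis genes and 5 and 6 replication genes, with 4.89% and 5.32% of all genes. The medians of the roles lay nearer to each other against these arrays than against its own control.

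**Figure D4:**
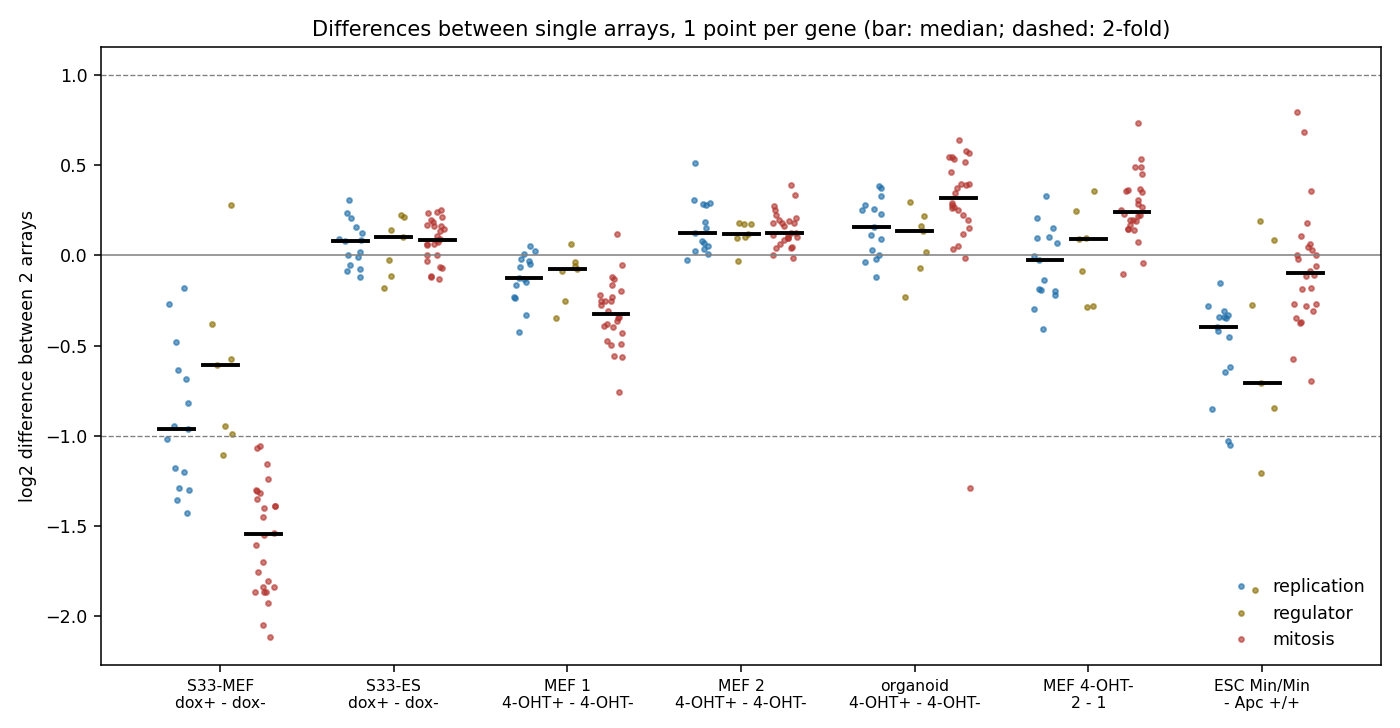
Log2 difference of each member between single arrays for 7 pairs of arrays, coloured by role, with the median as a black bar and 2-fold as dashed lines. Only in S33-MEFs with dox do all 26 mitosis genes lie beyond 2-fold (median -1.54). The pairs of untreated #45 MEF arrays, MEF 4-OHT, S33-ES dox, organoid 4-OHT and Min/Min ESCs have mitosis and replication medians nearer 0. The regulator median is farther from 0 in Min/Min ESCs (-0.71) than in S33-MEFs with dox (-0.61).

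The other lists also had lower values in S33-MEFs: 40 of 53 other mitosis genes were at least 2-fold lower with dox (Kif4 -1.91, Ncapg2 -1.91, Knl1 -1.90) and 9 of 38 other replication genes (Pola1 -1.59, Prim1 -1.40, Wdhd1 -1.38), with 0 higher in either. Above the array median were 53 of 56 mitosis and 38 of 44 replication genes without dox, and 33 of each list with it. The filter thus let genes in through the array without dox, which favours lower values. Without the filter, 41 of 56 and 10 of 44 were at least 2-fold lower. Of 23 brakes and G1 genes, 2 were at least 2-fold higher and 2 lower, against 2.5% and 3.71% of all genes. The inhibitors of Cdk4 and Cdk6 encoded by Cdkn2a (9.56 to 10.69, 1.13; this locus also encodes Arf) and Cdkn2b (11.08 to 12.18, 1.10) were higher, and Cdkn2c (10.10 to 8.62) and Cdkn1c (10.43 to 8.95) were lower (-1.48 each). Cdkn1b (-0.78), Pcna (-0.30), Ccnd2 (-0.01) and Ccnd1 (0.34) were inside 2-fold. Fibroblast markers averaged 12.77 without and 12.45 with dox, with 1 of 8 at least 2-fold lower (Dcn, 13.07 to 11.10). Eomes, a mesendoderm and trophoblast factor, was 6.73 and 9.95. Their part in the member differences was not tested.

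In S33-ES cells the members with dox were close to their level without it. None of 48 was 2-fold apart, against 3.16% of all genes, and differences ran from -0.18 to 0.31. Medians were 0.08 for replication genes and 0.09 for mitosis genes. Nuf2 was 9.96 and 9.85, Bub1b 11.75 and 11.89, Gins1 10.62 and 10.75, and Mcm3 11.83 and 11.84. Ccnd2 was the 1 gene of 22 brakes and G1 genes past 2-fold, at 11.03 without and 8.88 with dox (-2.15), and fibroblast markers averaged 9.34 and 8.43, with 4 of 8 at least 2-fold lower. The part of the markers was not tested. Whether the dox difference itself differed between S33-MEFs and S33-ES cells could not be tested with 1 array in each state.

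4-OHT in #45 MEFs gave no called member. By limma on 2 against 2 arrays, 0 of 48 members and 0 of 11603 genes (0%) passed an adjusted p of 0.05. At an unadjusted p of 0.05 there were 0 members and 519 genes (4.47%). Median differences were 0.05 for replication genes and -0.12 for mitosis genes, and all adjusted p were 1. That fit did not use the number in the titles. With this number as a replicate block, 148 genes and 0 of 48 members passed. The pairs of the same number went opposite ways. In pair 1, 43 of 48 members were lower with 4-OHT (50.1% of all genes lower), including 25 of 26 mitosis genes (median -0.33) and 12 of 15 replication genes (median -0.12). In pair 2, 45 of 48 were higher (51.3% of all genes higher), including 25 of 26 mitosis genes (median 0.13) and 14 of 15 replication genes (median 0.13). Lower in pair 1 and higher in pair 2 were 40 of 48 members and 17.9% of all genes.

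Ccnb2, a partner of Cdk1, shows this: it was 11.11 and 11.28 without 4-OHT and 10.35 and 11.37 with it, so the treated arrays lay on both sides of the untreated ones (-0.33 ± 0.38, limma adjusted p = 1). Cdc20, which targets cyclin B for destruction, was 9.46 and 9.95 without and 9.06 and 10.06 with 4-OHT. The licensing factor Cdt1 had the highest difference among members, 0.26 ± 0.17 (limma adjusted p = 1), with 10.00 and 9.59 untreated and 10.01 and 10.11 treated. Lyz2, a macrophage gene, was 13.20 and 13.26 in pair 1 and 10.50 and 10.22 in pair 2. All 7 immune markers together averaged 9.43 and 9.24 in the first and 7.86 and 7.79 in the second, and their part in the opposite directions was not tested.

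In organoids, 4-OHT went with slightly higher values of most members and a lower value of Kif20a. With 1 array on each side, 41 of 48 members had a higher value (50.3% of all genes), among them 24 of 26 mitosis genes (median 0.32), 12 of 15 replication genes (median 0.16) and 5 of 7 regulators (median 0.13). None was 2-fold higher, against 2.1% of all genes. Cenpe (9.36 to 10.00, 0.64), the cytokinesis factor Ect2 (11.68 to 12.26, 0.58) and the centromere protein Cenpf (9.63 to 10.20, 0.57) had the highest differences. Kif20a alone was at least 2-fold lower, 9.67 without and 8.37 with 4-OHT (-1.29), against 0.746% of all genes, and its treated level was the lowest of all 18 arrays. Outside the members, Pimreg, a mitosis gene, was 8.34 and 9.72 (1.38).

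Scaling bears on this pair. The median over all genes was 0.00 after quantile normalization, -0.22 with the values as deposited and 0.40 with arrays centred on their medians. The mitosis median was 0.32, 0.19 and 0.81 in the same order, the replication median 0.16, 0.04 and 0.66, and the regulator median 0.13, -0.08 and 0.55, so the sign for regulators turned with the values as deposited. Of genes at least 2-fold apart, 73.8%, 14.3% and 93.8% were higher.

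Min/Min ESCs had lower values of replication genes and of most regulators than the other ESC arrays, with mitosis genes divided. Against Apc +/+ ESCs, with 1 array each, 15 of 15 replication genes had a lower value (55.4% of all genes), with a median of -0.40, while 16 of 26 mitosis genes were lower and 10 higher (median -0.10). Of 7 regulators, 5 were lower and 2 higher (median -0.71). At least 2-fold lower were 4 of 48 members, against 5.65% of all genes: Ccne1 (12.69 in +/+ and 10.84 in Min/Min, -1.86), the atypical repressor E2f8 (10.55 and 9.34, -1.21), Cdt1 (12.18 and 11.13, -1.05) and Rrm2 (12.88 and 11.86, -1.03). A share of members near the background is no result about the members. Cenpf (10.56 and 11.36, 0.80) and Mki67 (11.35 and 12.04, 0.69) had higher values in Min/Min.

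The other ESC arrays gave like values. Against Apc Min/+ ESCs, 14 of 15 replication genes were lower in Min/Min (56.1% of all genes), with a median of -0.54, and against S33-ES dox- 15 of 15 (53.2% of all genes), with a median of -0.66. Regulators were lower for 5 of 7 against Apc Min/+ (median -0.70) and 7 of 7 against S33-ES dox- (median -0.71). These 3 comparisons share the Min/Min array. Apc Min/+ and +/+ ESCs differed by a median of 0.07 over replication genes, with no member 2-fold apart and 0.0711% of all genes 2-fold higher and 0.0356% lower. Among other replication genes 38 of 43 were lower in Min/Min than in +/+, 5 of them at least 2-fold (Rfc2 -1.20, Timeless -1.15, Pola2 -1.10 the farthest). The inhibitors Cdkn2b (-2.06) and Cdkn2a (-1.10) were lower too, as was Pimreg (-1.87). Myeloid and lymphoid markers averaged 8.21 in Min/Min and 7.39 in +/+ (Lyz2 10.59 and 7.77), and fibroblast markers 10.93 and 10.54, with 2 of 8 at least 2-fold higher. Of 5 intestinal markers above the filter, 3 were at least 2-fold higher in Min/Min (Cdx2 9.48 and 7.04; median 1.31), and of 5 trophoblast markers 2 were at least 2-fold lower (Gata3 6.63 and 9.08; median -0.98). Their part, like that of the medium, was not tested. Values as deposited gave a replication median of -0.47 and moved the share of higher genes among those 2-fold apart from 44.9% to 34.6%.

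RTCs were set against 3 ESC arrays (Apc +/+, Apc Min/+ and S33-ES dox-) to ask whether they share features of pluripotent cells. Kif20a was the only 1 of 48 members called by limma. As a count of members this is no more than the background and is no result about the list, since 3.48% of 12080 genes were called lower and 3.21% higher. Kif20a was lower in RTCs. It stood at 10.89, 10.03 and 9.81 in RTCs 1, 2 and 3 and at 11.91, 11.58 and 12.07 in the ESCs, with no overlap. The difference was -1.61 ± 0.28 (limma adjusted p = 0.019). The call was lost without RTC 2 (adjusted p = 0.0703), RTC 3 (0.0719), Apc +/+ (0.0655) or Apc Min/+ (0.0525), with differences of -1.39 to -1.75. Derivatives #45 and #9 also stood low, at 10.25 and 10.21, with #45 MEFs at 9.22 to 9.66, whereas Min/Min ESCs were at 11.72 and S33-MEFs at 11.14 without and 9.37 with dox. Of 5 myeloid and lymphoid markers tested, 4 were called higher in RTCs, with means of 8.37 to 9.00 over the 7 markers against 7.35 to 7.71. Intestinal markers gave 2 of 4 called higher (Cdx1 by 1.90 and Cdx2 by 1.58). The other 2 had lower values in RTCs and were not called. Cdh1 was 11.70 to 12.08 in RTCs and 12.31 to 12.71 in the ESCs, and Epcam 10.82 to 11.33 and 11.55 to 11.61. Trophoblast markers gave 2 of 5 called lower (median -1.08). Fibroblast markers gave 0 of 8 called, with lower values in RTCs for all 8 (median -0.44). The part of these lists in the Kif20a result was not tested.

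The remaining 47 members were not called, with medians of -0.08 for replication and 0.07 for mitosis genes. Nearest the threshold were Ccne1 (-0.51 ± 0.13, limma adjusted p = 0.0667), Gins2 (0.72 ± 0.19, limma adjusted p = 0.072) and E2f1 (-0.48 ± 0.13, limma adjusted p = 0.0737). Of the other lists, 0 of 44 replication and 0 of 56 mitosis genes were called by limma, with 4 and 6 at an unadjusted p of 0.05 (23.6% of all genes), and the activating E2F gene E2f3 (-0.76, adjusted p = 0.0188) was the 1 call among brakes and G1 genes. The share of higher genes among all called was 48.0%, 59.5% with the values as deposited and 31.4% with arrays centred on their medians.

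Against the 2 derivatives, RTCs had 0 of 48 members called, with 2 at an unadjusted p of 0.05 (14.1% of all genes), while limma called 1.6% of 11940 genes. Medians were -0.04 for replication and 0.02 for mitosis genes. E2f1 was farthest apart, at 10.66, 10.38 and 10.36 in RTCs and 11.13 and 11.15 in the derivatives (-0.68 ± 0.18, limma adjusted p = 0.146), and Kif23, a motor of the central spindle, was higher in RTCs by 0.44 (limma adjusted p = 0.294). The share of higher genes among all called was 52.4%, and 71.6% with the values as deposited.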

How the data were processed

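Total RNA of 18 mouse samples was measured on 1 array each. The deposited values are 1 linear intensity per probe set and array, made by the authors; their correction, summarisation and scaling are not given in the sources used here. Of 28856 probe sets, 3 had no values; the platform annotation gave 1 symbol for 21789, several for 1621 and none for 5443. RefSeq matched 21698 of them by Entrez identifier and changed 0 symbols. The intensities were taken to log2 and quantile normalized over 18 arrays, and the probe set with the highest mean stood for a gene (1 member, Top2a, had several). A gene entered a comparison if it was above the array median in at least 1 array compared. Groups follow the sample titles.

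Comparisons with more than 1 array on each side used limma 3.58.1 in R 4.3.3 (lmFit, eBayes without a trend, 2-sided, only the arrays compared). Their p-values were adjusted by Benjamini-Hochberg over the genes tested, with a threshold of 0.05, and the fits were checked on simulated data. Single arrays were compared by a 2-fold rule. The number of arrays limits the precision. RTC 1 and RTC 3 are paired with derivatives #45 and #9 by the line of origin in the titles; deviations from the group means of same-numbered arrays correlated at 0.104 and 0.0254. Alternatives were the scaling, the filter, the mean of probe sets, an intensity trend, a joint fit of all arrays, another fold, the replicate block and leaving out each array. Named genes were all members and, from the other lists, the 3 farthest apart in each direction past the threshold, with Cdkn1a (no probe set of its own), Cdkn1b, Cdkn1c, Cdkn2a, Ccnd1, Ccnd2 and Pcna; further names were chosen after their values were seen. Members and lists were chosen with earlier results of these data known. Promoter windows and genome positions are RefSeq's (GRCm38.p6). Figures were drawn with matplotlib in Python.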

Additional observations from a re-analysis of the deposited data

Results flagged for a closer look

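The mean difference between dox+ and dox- was below 0 in S33-MEFs and near 0 in S33-ES cells for each role. For mitosis genes it was -1.57 in S33-MEFs and 0.08 in S33-ES cells, a gap of -1.65. For replication genes it was -0.92 and 0.06, a gap of -0.98, and for regulators -0.62 and 0.05, a gap of -0.67. These results stand out because the signs differ. The S33-ES values are smaller than the pooled standard deviation of such means between arrays of one group (0.25, 0.11 and 0.0859). The 0.25 for mitosis genes came from the MEFs, so it is no measure for S33-ES cells. With 1 array in each state no direction is shown in S33-ES cells, and these gaps were not tested.

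Cdt1, the licensing factor, stood at 11.49 in derivative #45, below the other 4 arrays of the 5 pluripotent ones set against fibroblasts (12.08 to 12.25). The gap to its nearest neighbour was large for the group's range. Of 48 members checked in these 5 arrays, 1 had such an array. Chance alone gives about 1 in 20, or 2.4 of 48, so this count is no more than chance gives.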

How the results depend on the processing

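No result turned its sign as a called value under the alternatives run. In RTCs against ESCs the members called lower numbered 1, and 2 with centred arrays or with an intensity trend, and 0 to 2 without single arrays (0 without RTC 2, RTC 3, Apc +/+ or Apc Min/+; 2 without RTC 1). Members called higher numbered 0, and 1 in the joint fit of all arrays and 0 to 1 without single arrays (1 without S33-ES dox-). The regulator median of -0.36 was -0.25 with the values as deposited and -0.40 to -0.21 without single arrays, and the replication median of -0.08 was -0.20 with centred arrays. In RTCs against derivatives, centring gave -0.22 for replication and -0.40 for regulators; leaving out single arrays gave -0.15 to 0.12 and -0.33 to -0.15; the joint fit called 1 member lower. In MEFs with 4-OHT, leaving out single arrays gave medians of -0.44 to 0.30 for mitosis, -0.086 to 0.143 for replication and -0.0767 to 0.145 for regulators. The regulator median of pluripotent cells against fibroblasts ran from 1.25 to 1.42 without single arrays. In organoids, medians were 0.0354 (replication) and -0.0762 (regulators) as deposited and 0.66, 0.55 and 0.81 (replication, regulators, mitosis) with centred arrays; 5 members were 2-fold higher with centred arrays, and 1 at a fold of 1.5. In Min/Min against +/+ ESCs, 2 members were higher and 10 lower at a fold of 1.5. The cause was not tested.

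Over all genes, RTCs against ESCs gave 808 calls, 358 with the values as deposited and 234 to 1170 without single arrays. RTCs against derivatives gave 191, 81 as deposited, 561 in the joint fit and 33 to 383 without single arrays. Genes 2-fold apart in organoids numbered 324, 726 as deposited and 613 centred. At a fold of 1.5 the counts were 1346 in organoids, 1743 in S33-MEFs, 1113 in S33-ES cells and 3219 in Min/Min ESCs. Centring moved the median of all genes to -0.14 in RTCs against ESCs and to -0.12 in RTCs against derivatives.

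With the number in the titles as a replicate block, MEFs with 4-OHT gave 148 called genes in place of 0, with 0 of 48 members. Deviations of same-numbered MEF arrays correlated at 0.855, but there are only 2 pairs and the labels do not say what the number marks. With the line of origin as a replicate block, RTCs against derivatives gave 232 genes in place of 191 and again 0 members. Of the 191 genes, 142 were still called with that block.

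Limits: S33-MEF dox, S33-ES dox, organoid 4-OHT and the Min/Min comparison rest on 1 array on each side, the authors' scaling is unknown (deposited medians of 142 to 317), and arrays give no read depth. Every member was above the array median in at least 1 array of each comparison, but in S33-MEF dox+ only 40 of 48 were.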

Other observations

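Over the groups with more than 1 array (RTCs, their derivatives, and #45 MEFs without and with 4-OHT), the pooled standard deviation of the mean level was 0.25 for mitosis genes, 0.11 for replication genes and 0.0859 for regulators, each on 5 degrees of freedom. The mitosis value came from the MEFs, whose mean level was 9.66 and 9.93 without 4-OHT and 9.34 and 10.08 with it. In RTCs the mitosis means (11.77 to 11.80) lay closer together than the replication means (11.59 to 11.70). No test was run on this.

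Pimreg, a mitosis gene outside the members, was 8.34 without and 9.72 with 4-OHT in organoids (1.38), 10.54 in +/+ and 8.67 in Min/Min ESCs (-1.87) and 9.90 without and 8.26 with dox in S33-MEFs (-1.64), each with 1 array on each side.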
